A study of Mus musculus with 44 samples.

Results

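Among mouse small-intestinal organoid cells treated with RANKL for 4 to 9 days, wells with a high count of the stem cell receptor transcript Lgr5 and no count of 2 proliferation genes were described. A well was a member when it held at least 1000 UMIs (unique molecular identifiers, each standing for 1 captured RNA molecule), 3 or more UMIs of Lgr5, and no UMI of Mki67 or Top2a. The rule selected 441 of the 3832 wells that passed the UMI minimum on those days, out of 8231 such wells in the series. They are called Lgr5-high non-dividing wells, where "non-dividing" means only that neither Mki67 nor Top2a was counted. On the same plates, 1072 wells had the same Lgr5 count with at least 1 UMI of Mki67 or Top2a (Lgr5-high dividing), 445 had no UMI of Lgr5, Mki67 or Top2a (Lgr5-negative non-dividing), and 472 were Lgr5-negative with Mki67 or Top2a. The remaining 514 non-dividing and 888 dividing wells had 1 or 2 UMIs of Lgr5.

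LGR5 is the receptor for R-spondins, which raise Wnt signalling, and it marks the crypt base columnar stem cells at the bottom of intestinal crypts. These cells renew the epithelium, and most of them cycle; their progeny leave the crypt base, divide as transit-amplifying cells and become absorptive enterocytes or secretory cells, such as goblet and Paneth cells. RANKL, a TNF family cytokine that binds RANK (gene Tnfrsf11a), drives the formation of M cells, the antigen-sampling cells above lymphoid follicles.

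The organoids came from 1 line, named line26 wild type, from a female Lgr5GFPDTR/+ mouse, so in every group 1 Lgr5 allele held a knock-in of GFP with the receptor for diphtheria toxin, and the deposited counts do not tell the alleles of Lgr5 apart. All groups were first kept in ENR medium (EGF, Noggin and R-spondin 1) with 3 µM of the GSK3 inhibitor CHIR99021 and 1.5 mM valproic acid for 3 days, and then in ENR alone for 1 day. They were then assigned to 100 ng/mL RANKL with 40 µM CSRM617, an inhibitor of the transcription factor ONECUT2, or to 100 ng/mL RANKL alone. The first arm was sampled on days 0 to 6, with 2 plates a day, and the second on days 0 to 9, with 3 plates a day. Viable cells were sorted singly into 384-well plates by light scatter, with no marker gate, and the 3' ends of their transcripts were counted with a modified CEL-Seq2 protocol.

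The 18 RANKL plates of days 4 to 9 held 32 to 282 kept wells and 178730 to 1379617 UMIs each, and the median well of a plate had 2968 to 6960 UMIs. Plates of the same day differed beyond counting noise, since chi-square per gene ran between 2.43 and 13.9 in 18 pairs of plates. In every comparison the plate was the unit: UMIs were summed over the wells of a class within a plate, and a plate entered when both classes had 10 or more wells, which 16 plates did, only 1 of them from day 4. Levels are given as UMIs scaled to a fixed library total for the class in that plate (CPM). CPM of single genes were scaled by TMM within each comparison, so the level of a gene differs slightly between comparisons, whereas sums over gene lists are plain CPM. A called gene had an adjusted p under 0.05 in edgeR's quasi-likelihood test with Benjamini-Hochberg adjustment over all genes tested. Genes with low counts were filtered out before the test. Between classes, the filter could be passed through 1 class alone, the one where a gene was high. For the change per day 1 plate was enough, since day 4 had 1 plate. Counts of tested list genes by direction are therefore partly set by the filter.

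Lgr5-high non-dividing wells were rare early and common late in the RANKL series. They made up 2.60% ± 1.10 of kept wells on day 0 (SD, n = 3 plates, 10 of 481 wells), and 5 of 2245 wells passed on days 1 to 3. Their share was 7.66% ± 2.79 on day 4, then 9.46% ± 2.07, 8.37% ± 1.35, 13.04% ± 1.86, 10.3% ± 4.37 and 17.7% ± 1.80 from day 5 to day 9 (SD, n = 3 plates each). Over the 18 plates of days 4 to 9 the lowest share was 4.44%, the median 9.77% and the highest 19.3%. The plates of day 9 lay above all plates of the other days. The plates of day 7 lay above all plates of days 4 and 6, while the plates of days 5 and 8 overlapped with those of days 4, 6 and 7. Because the rule uses counts, the share depends on depth: with each well thinned to 3000 UMIs and shallower wells left out, it averaged 9.06% ± 5.50 over the 18 plates, against 11.1% ± 4.12 without thinning, and on day 4 it was 2.00% ± 1.88. Of all Lgr5-high wells, those without Mki67 and Top2a made up 22.5% on day 4, and then 25.5%, 33.7%, 25.6%, 24.9% and 41.2% from day 5 to day 9. The shares were known when the rule was written and carry no test.

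No well passed the rule in the RANKL+CSRM617 arm on days 4 to 6. There, 0 of 343 wells passed, which allows a share of up to 0.875% by counting error, against 141 of 1598 wells under RANKL alone on the same days. All classes of RANKL+CSRM617 wells together held 8 Lgr5 UMIs among 985869 UMIs on those days, and plates ran from 0 to 26.6 CPM of Lgr5, against 312 to 467 CPM on the RANKL plates. The median well of a RANKL+CSRM617 plate held 1800 to 3310.5 UMIs, against 3442.5 to 6960 on RANKL plates, and 121 of the 343 wells had 3000 or more UMIs. Thinned to 3000 UMIs, none of those 121 wells passed, against day means of 2.00%, 7.18% and 8.85% under RANKL on days 4 to 6. The arms were deposited as separate tables with 9257 and 21099 genes, so the CPM are set on different sums of genes. Depth, the treatment and other differences between the arms were not tested apart. On day 0 the share was 2.88% ± 0.666 (SD, n = 2 plates, 10 of 345 wells) in the RANKL+CSRM617 arm, and on day 1 it was 1.64% ± 0.849 (7 of 415 wells).

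**Figure D1:**
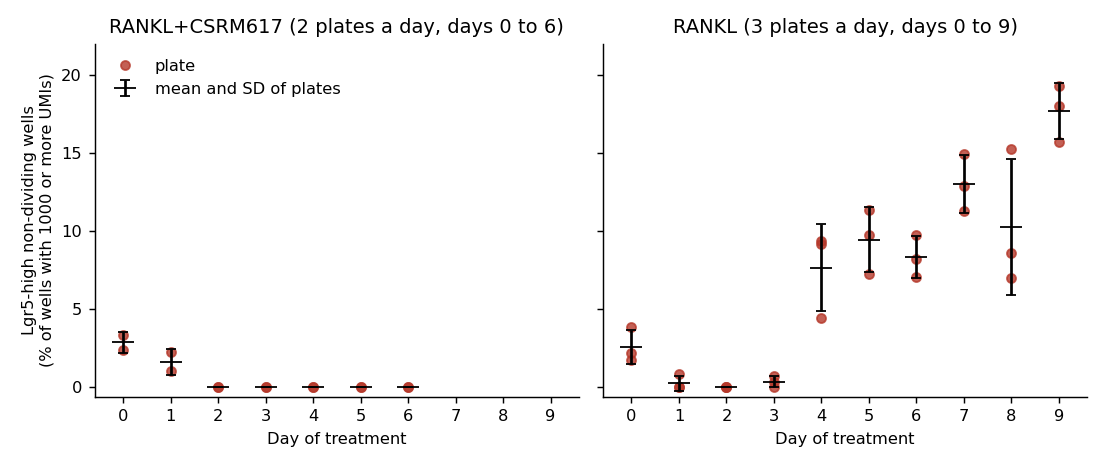
Share of kept wells that passed the rule (per cent) by day of treatment, 1 point per plate, with the mean and SD of the plates, in the RANKL+CSRM617 arm and the RANKL arm. The RANKL plates of days 4 to 9 lie between 4.44% and 19.3%, and no RANKL+CSRM617 well of days 4 to 6 passed.

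The genes that chose the wells are given as a description. Members had 3 to 16 UMIs of Lgr5, with a median of 4, and Lgr5-high dividing wells 3 to 17, also with a median of 4. On the 16 plates Lgr5 had 902 CPM in the lowest class sum of members, 1072 CPM in the median and 1422 CPM in the highest. The dividing wells held 2826 UMIs of Mki67 and 6937 of Top2a, which members lack by the rule. A member had a median of 3706 UMIs and 1948 genes, against 5227.5 UMIs and 2453 genes in Lgr5-high dividing wells and 2807 UMIs and 1481 genes in Lgr5-negative non-dividing wells, so the classes differed in depth. Lgr5 lies on chromosome 10, 115450311 to 115587780, on the minus strand of GRCm38.

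The name given to the wells was set beside crypt stem cell markers that the rule did not use. Olfm4 and Tnfrsf19 came with the description of the wells, and the other markers were listed with earlier results of these data known. Their values therefore describe the wells and are no independent check of the name. Olfm4, a secreted glycoprotein of crypt base cells, was counted in 97.7% of members, against 99.4% of Lgr5-high dividing and 88.5% of Lgr5-negative non-dividing wells; with wells thinned to 3000 UMIs the shares were 97.6%, 98.5% and 84.4%. Tnfrsf19, a Wnt-induced TNF receptor family member, was counted in 31.5% of members, 38.9% of Lgr5-high dividing and 5.62% of Lgr5-negative non-dividing wells, and after thinning in 25.4%, 28.4% and 6.16%. Smoc2, a matricellular protein of the crypt base, was counted in 81.9%, 90.9% and 42.0% of the 3 classes, in the same order, and in 75.8%, 79.1% and 38.9% after thinning. Ascl2, the transcription factor that directs the stem cell programme, was counted in 26.3%, 45.2% and 9.66%, and in 22.1%, 31.7% and 7.58% after thinning. For all 4 markers the share in members lay between those of the other 2 classes, before and after thinning. A single UMI is a weak sign of expression: Sis, the sucrase of mature enterocytes, was counted in 34.5% of members and 54.6% of Lgr5-negative non-dividing wells. Those shares were 28.4% and 61.6% after thinning.

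Around the threshold the markers changed gradually, as shown by the levels in non-dividing wells grouped by their Lgr5 UMIs. The 158 wells with 3 UMIs of Lgr5, just inside, had 7004 CPM of Olfm4, 83.9 CPM of Tnfrsf19, 549 CPM of Smoc2 and 170 CPM of Sis. The 211 wells with 2 UMIs, just outside, had 6547 CPM of Olfm4, 87.3 CPM of Tnfrsf19, 524 CPM of Smoc2 and 437 CPM of Sis. In the 303 wells with 1 UMI, Olfm4 was at 4486 CPM and Sis at 1927 CPM, and in the 445 wells with none they were at 2148 and 5831 CPM. In the 176 wells with 5 or more UMIs, Olfm4 reached 9647 CPM and Tnfrsf19 159 CPM. Wells with 2 UMIs resembled members more than they resembled wells without Lgr5 in these 4 genes, so the threshold of 3 divides a continuum. The median well held 2807 UMIs at 0, 3264 at 2, 3487.5 at 3 and 3954 at 5 or more Lgr5 UMIs, so depth moved with the steps; its part in them was not tested.

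**Figure D2:**
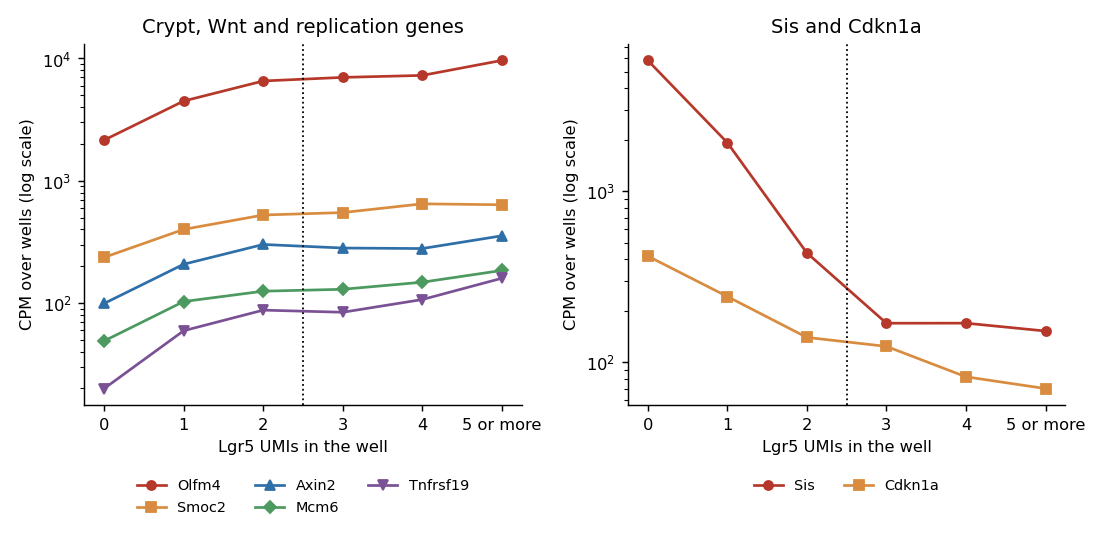
CPM of marker genes over all non-dividing wells of RANKL days 4 to 9, grouped by their Lgr5 UMIs from 0 to 5 or more (log axis), with a dotted line at the threshold of 3. Olfm4 lies at 7004 CPM at 3 UMIs and 6547 CPM at 2 UMIs, and Sis at 170 and 437 CPM.

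Against Lgr5-negative non-dividing wells of the same plates, members had higher levels of crypt stem cell genes and Wnt targets and lower levels of enterocyte genes. Of 2116 genes tested, 338 were higher (16%) and 371 lower (17.5%), so 33.5% of genes were called in either direction, and 452 genes were called without the 3 plates of day 5. A class sum mixes its wells, so fewer cells of a type and less RNA per cell cannot be told apart in it. Of the 18 crypt stem cell genes listed, Lgr5 included, 11 were tested, and 10 were higher and none lower (Prom1 was not called), with a median log2 difference of 1.10, against a median of 0.00 over all genes tested. Some of them may have passed the filter through members alone, so that count is partly fixed.

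Olfm4 ran from 2700 CPM on the lowest plate through a median of 8363 to 14058 CPM on the highest in members, against 613, 2038 and 7896 CPM in Lgr5-negative non-dividing wells. It was higher in members on 16 of 16 plates, although the ranges of the classes overlapped, with a log2 difference of 1.69 ± 0.14 (SE, edgeR adjusted p = 3.56e-11). Smoc2 had 426, 565 and 822 CPM in members, against 79.4, 237 and 425 CPM, with no overlap (log2 difference 1.17 ± 0.12, edgeR adjusted p = 6.12e-09). Slc12a2, the basolateral sodium-potassium-chloride cotransporter of crypt cells, had 4236, 5237 and 5804 CPM in members, against 1515, 2482 and 3374 CPM, again with no overlap (1.10 ± 0.09, edgeR adjusted p = 3.48e-11). For both genes the lack of overlap holds for plate sums, and for Smoc2 the margin was narrow, 426 against 425 CPM. Single wells did overlap, since 42.0% of Lgr5-negative non-dividing wells held a UMI of Smoc2 and 81.9% of members did. How many of all genes tested lacked overlap was not counted.

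Rgmb, a BMP co-receptor, had 268, 463 and 756 CPM in members, against 98.8, 178 and 314 CPM in Lgr5-negative non-dividing wells, and was higher on 16 of 16 plates (log2 difference 1.37 ± 0.13, edgeR adjusted p = 2.94e-10). Igfbp4, which binds insulin-like growth factors, was higher on 16 of 16 plates by 1.36 ± 0.14 (SE, log2; edgeR adjusted p = 4.19e-09), and Cdca7, a chromatin factor listed with the stem cell genes, on 15 of 16 by 1.37 ± 0.17. Clca3b, a calcium-activated chloride channel regulator, was higher by 1.25 ± 0.13 on the log2 scale, but it has near-identical neighbours and its counts may be shared with them. Lrig1, an inhibitor of ERBB receptors that marks stem and progenitor cells, was higher by 0.99 ± 0.19 (edgeR adjusted p = 0.000159). Prom1, a membrane glycoprotein found on crypt stem and progenitor cells, was not called (log2 difference -0.04 ± 0.16, edgeR adjusted p = 0.871).

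Tnfrsf19, Ascl2 and Mex3a were too low for the filter in this comparison and are given as counts. Tnfrsf19 had 48.3, 91.2 and 225 CPM in members, against 0, 18.6 and 85.5 CPM in Lgr5-negative non-dividing wells, and was higher on 16 of 16 plates, from 210 and 31 UMIs. Ascl2 had 19.6, 99.4 and 189 CPM in members, against 0, 33.3 and 102 CPM, higher on 14 of 16 plates. Mex3a, an RNA-binding protein of slow-cycling progenitors, was higher on 12 of 16 plates, with medians of 73.9 and 40.7 CPM. Without the filter the log2 differences were 2.27 ± 0.28 for Tnfrsf19 (SE, edgeR adjusted p = 4.73e-14), 1.36 for Ascl2 (edgeR adjusted p = 6.03e-06) and 0.76 for Mex3a (edgeR adjusted p = 0.0329).

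Of 17 listed Wnt targets and regulators in the table, 9 were tested, and 5 were higher and 2 lower, with a median log2 difference of 0.49. Axin2, the negative feedback regulator that is a standard Wnt target, had 137, 280 and 436 CPM in members, against 0, 108 and 239 CPM in Lgr5-negative non-dividing wells, and was higher on 15 of 16 plates (log2 difference 1.38 ± 0.20, edgeR adjusted p = 2.8e-06). Sox9, a transcription factor of the crypt base, had 745, 983 and 1242 CPM in members, against 283, 562 and 959 CPM, and was higher on 16 of 16 plates (0.78 ± 0.10, edgeR adjusted p = 2.19e-07). Cd44, a hyaluronan receptor, and Myc, a growth transcription factor, were higher by 0.75 and 0.74; the call of Cd44 was lost with members of 5 or more Lgr5 UMIs (edgeR adjusted p = 0.0751). The 2 genes that were lower were Fzd5, a Wnt receptor, with a log2 difference of -0.76, and Tcf7l2, the transcription factor through which the pathway acts in the gut, with a log2 difference of -0.28. Of the 3 reserve stem cell genes tested, Lrig1 was higher, and Hopx and Bmi1 were not called, with Hopx at a log2 difference of 0.08 (edgeR adjusted p = 0.77).

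**Figure D3:**
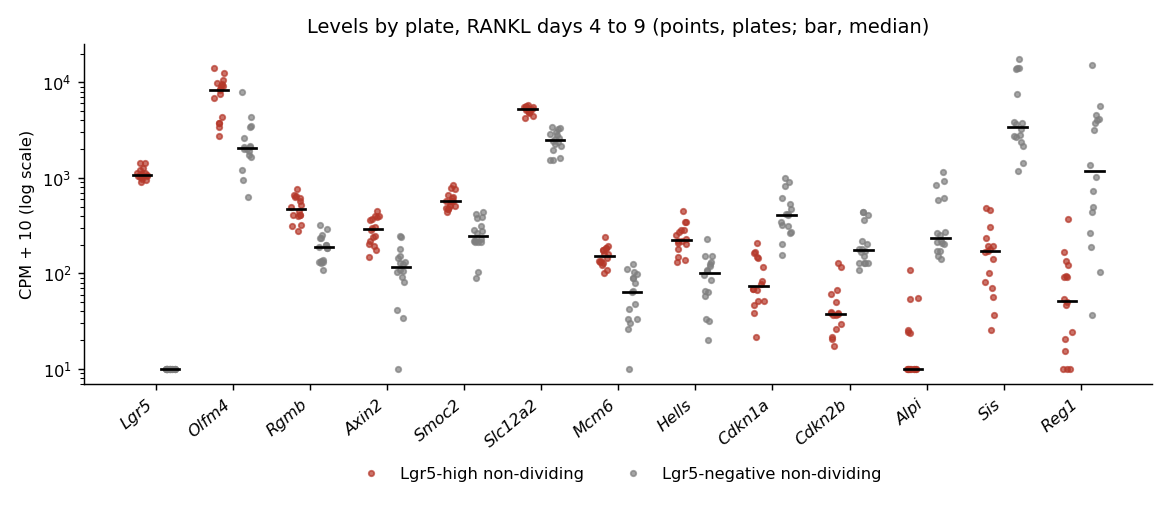
CPM plus 10 on a log axis for 13 genes in the 16 plates, with Lgr5-high non-dividing wells on the left and Lgr5-negative non-dividing wells on the right for each gene; points are plates and bars are medians. The plate sums of the 2 classes do not overlap for Smoc2 (by a narrow margin), Slc12a2, Sis and Alpi. Lgr5 is shown as a description because it chose the wells.

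Although both classes lacked Mki67 and Top2a, members held more transcripts of DNA replication genes and less of the CDK inhibitor genes Cdkn1a and Cdkn2b. All 4 replication genes that were tested, out of 20 listed, were higher. Such genes could pass the filter through members alone, so that count is partly fixed. Summed over all 20 genes without a filter, plates had 1083 to 2878 CPM in members, with a median of 2023. Lgr5-negative non-dividing wells had 524 to 2236 CPM, with a median of 926. Mcm6, a subunit of the replicative helicase, had 91.8, 142 and 232 CPM in members, against 0, 54.3 and 114 CPM in Lgr5-negative non-dividing wells, and was higher on 16 of 16 plates (log2 difference 1.41 ± 0.22, edgeR adjusted p = 8.68e-06). Hells, a chromatin remodeller of S phase, had 123, 213 and 443 CPM in members, against 10.2, 91.0 and 221 CPM, higher on 15 of 16 plates (1.41 ± 0.24, edgeR adjusted p = 2.14e-05). Dut, which keeps uracil out of DNA, was higher by 0.91. Pcna, the sliding clamp of DNA polymerase, was higher by 0.41 (edgeR adjusted p = 0.00853), but it was not called when wells were matched on their total UMIs (0.29, edgeR adjusted p = 0.0717), with members of 5 or more Lgr5 UMIs (0.28, edgeR adjusted p = 0.296), with a minimum of 3000 UMIs (0.24, edgeR adjusted p = 0.350) or with wells thinned to 1000 UMIs (0.09, edgeR adjusted p = 0.725).

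Cdkn1a, which encodes the CDK inhibitor p21, had 11.4, 63.1 and 199 CPM in members, against 144, 401 and 991 CPM in Lgr5-negative non-dividing wells. It was lower on 16 of 16 plates, with a log2 difference of -2.35 ± 0.23 (SE, edgeR adjusted p = 1.01e-09), and was counted in 20.9% of members and 41.1% of the other wells (17.9% and 42.7% after thinning to 3000 UMIs). Cdkn2b, which encodes the CDK4 and CDK6 inhibitor p15, had 7.26, 27.6 and 118 CPM in members, against 98.8, 165 and 433 CPM, and was lower on 16 of 16 plates (-2.49 ± 0.23, edgeR adjusted p = 2.94e-10). The antiproliferative gene Btg2 was lower (log2 difference -1.47, a call lost with a minimum of 3000 UMIs, edgeR adjusted p = 0.0729), and Cdk4 and Cdk6, the kinases of early G1, were higher by 0.77 and 0.80. Cdkn1b, which encodes p27, was not called (log2 difference -0.01, edgeR adjusted p = 0.994), nor was Ccnd2 (-0.10, edgeR adjusted p = 0.593). None of the 22 mitosis genes passed the filter on low counts in this comparison.

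The absence of Mki67 and Top2a UMIs did not mark all members as outside the cell cycle. Among the 335 members with 3000 or more UMIs, thinned to that number, 61 (18.2%, exact 95% interval 14.2 to 22.8%) held 3 or more UMIs over the other mitosis genes, against 64.8% of Lgr5-high dividing and 9.48% of Lgr5-negative non-dividing wells. For the DNA replication list, 244 of the 335 (72.8%, 67.7 to 77.5%) held 3 or more UMIs, against 88.0% and 42.2%. Summed over the mitosis list, members had 242 to 959 CPM a plate with a median of 497, against 2745 to 6066 CPM with a median of 3680 in Lgr5-high dividing wells and 184 to 944 CPM with a median of 400 in Lgr5-negative non-dividing wells. With members and Lgr5-negative non-dividing wells of 3 or more mitosis UMIs left out of both classes, an alternative chosen after seeing the data, 342 genes were called, and 612 of 612 main calls that could be tested kept their direction. The calls of Fzd5, Cd44, Anxa5, Klf5, Jund and Sc5d were lost in it (edgeR adjusted p = 0.0531 to 0.425).

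All 7 enterocyte genes tested, of 18 listed, were lower in members, with a median log2 difference of -4.26. Alpi passed the filter through the wells without Lgr5, so the direction of the tested genes is partly fixed. Summed over all 18 genes without a filter, the median plate had 1472 CPM in members and 9345 CPM in Lgr5-negative non-dividing wells. Sis had 15.3, 160 and 469 CPM in members, against 1170, 3411 and 17325 CPM in Lgr5-negative non-dividing wells, with no overlap (log2 difference -4.94 ± 0.21, edgeR adjusted p = 3.91e-19). Alpi, the brush border alkaline phosphatase, was at 0 CPM on the lowest and the median plate of members and at 98.1 CPM on the highest, against 133, 226 and 1141 CPM (-4.78 ± 0.32, edgeR adjusted p = 1.52e-13). For both genes the plate sums of the 2 classes did not overlap, while 34.5% of single members held a UMI of Sis. Apoa1, an apolipoprotein of lipid export, differed by -4.58 on the log2 scale, Slc5a1, the sodium-glucose transporter, by -1.93, and Guca2b, the hormone uroguanylin, by -3.99. The secreted lectins Reg1, Reg3b and Reg3g differed by -5.19, -3.69 and -2.16, but they belong to a family of similar genes whose reads may be shared. Selenop, which carries selenium, and Smim24, a small membrane protein, differed by -3.03 and -2.81.

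Some markers of secretory and M cells were also lower in members, with less separation. Of 3 goblet cell genes tested, Tff3, the trefoil peptide of mucus, had 0, 257 and 1621 CPM in members, against 57.0, 950 and 1933 CPM in Lgr5-negative non-dividing wells, and was lower on 11 of 16 plates (log2 difference -1.24 ± 0.33, edgeR adjusted p = 0.00388). Fcgbp, a mucus-binding protein, was lower (log2 difference -1.72), while Agr2, which folds mucins, was not called (-0.04, edgeR adjusted p = 0.924). The Paneth and crypt cell protease gene Mmp7 was not called (-0.17, edgeR adjusted p = 0.627). Of 5 M cell genes tested, 3 were lower: Ccl20, the chemokine of follicle epithelium, with a log2 difference of -2.16 ± 0.22 (SE, edgeR adjusted p = 1.75e-09, lower on 15 of 16 plates), Serpinb1a, a protease inhibitor, with -1.36, and Anxa5, an annexin, with -0.78, a call lost without the 3 plates of day 5 (-0.47, edgeR adjusted p = 0.0946). Spib, the transcription factor that M cell maturation needs, was counted 18 times in members and 49 times in Lgr5-negative non-dividing wells and did not pass the filter. Without the filter it was not called in this comparison (log2 difference -1.20 ± 0.44, edgeR adjusted p = 0.0786) and was lower against all Lgr5-negative wells (-1.52 ± 0.35, edgeR adjusted p = 0.000453).

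The receptor of RANKL was present in members. Tnfrsf11a had 89.4, 169 and 306 CPM in members, against 28.5, 146 and 243 CPM in Lgr5-negative non-dividing wells; it was higher on 9 of 16 plates and was not called (log2 difference 0.28 ± 0.16, edgeR adjusted p = 0.18). None of the 3 tested genes of the RANK and NF-kappaB list was called; Nfkbia, the inhibitor induced by the pathway, had a log2 difference of -0.13 (edgeR adjusted p = 0.378). Onecut2, the gene of the transcription factor that CSRM617 inhibits, had 296, 479 and 658 CPM in members, against 314, 752 and 1135 CPM, and was lower on 15 of 16 plates (-0.67 ± 0.11, edgeR adjusted p = 1.51e-05). Vdr, the vitamin D receptor, was higher by 0.74, and Hes1, the Notch target that holds progenitors from secretory fate, had 321, 463 and 858 CPM in members, against 159, 269 and 522 CPM (0.77 ± 0.11, edgeR adjusted p = 1.41e-06). Klf5, a factor of proliferating crypt cells, differed by -0.33 (edgeR adjusted p = 0.0194), a call that was lost without day 4 replicate 2 (adjusted p = 0.0512) and without day 8 replicate 2 (adjusted p = 0.0644), and also without all plates of day 5 (adjusted p = 0.112) or day 7 (adjusted p = 0.125).

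Most of the tested cholesterol synthesis genes and some immediate early genes were lower in members. Of 9 cholesterol genes tested, 7 were lower and none higher, with a median log2 difference of -0.67. Insig1, which restrains the pathway and is itself a target of it, had 66.1, 173 and 333 CPM in members, against 79.3, 365 and 1169 CPM in Lgr5-negative non-dividing wells (log2 difference -1.38 ± 0.18, edgeR adjusted p = 2.29e-07). Sc5d and Cyp51, enzymes of the later steps, differed by -0.83 and -0.71. Of 7 immediate early genes tested, 4 were lower, Myc was higher and 2 were not called, and the list summed to a median of 1645 CPM a plate in members, against 1804 CPM in Lgr5-negative non-dividing wells; Klf6, a stress-induced transcription factor, differed by -0.83, Junb by -0.77 and Jund by -0.53. The call of Jund was lost without the plates of day 8 (edgeR adjusted p = 0.0507) or day 9 (edgeR adjusted p = 0.0700), and that of Klf6 with members of 5 or more Lgr5 UMIs (edgeR adjusted p = 0.0514). Of the other lists, 2 BMP genes, 1 EGF pathway gene and 1 regenerative gene were tested and none was called.

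When all Lgr5-negative wells were the comparator, dividing wells included, more of the low genes could be tested. Of 3205 genes, 363 were higher in members (11.3%) and 365 lower (11.4%), or 22.7% in all. Of 16 stem cell genes tested, 15 were higher and none lower. Tnfrsf19 had 49.4, 93.5 and 231 CPM in members, against 12.1, 36.0 and 71.9 CPM in all Lgr5-negative wells, and was higher on 15 of 16 plates (log2 difference 1.50 ± 0.19, edgeR adjusted p = 1.12e-07). Ascl2 was higher by 0.86 ± 0.19 (SE, log2; edgeR adjusted p = 0.000674, on 12 of 16 plates). Mex3a was higher by 0.61 (edgeR adjusted p = 0.0148, on 11 of 16 plates), a call lost in 4 of the 27 repeats that tested it. Among these were the repeats without the 3 plates of day 5 (0.34, adjusted p = 0.285) or those of day 7 (0.59, adjusted p = 0.0591). Without the filter on low counts it was not called either (0.53, edgeR adjusted p = 0.0848).

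Of the Wnt list, Rnf43, the ligase that removes Wnt receptors, had 61.3, 107 and 156 CPM in members, against 25.9, 49.3 and 70.1 CPM in all Lgr5-negative wells, and was higher on 16 of 16 plates (log2 difference 1.12 ± 0.16, edgeR adjusted p = 7.46e-07). Rgcc, a cell cycle regulator in the stem cell list, was higher on 16 of 16 plates by 1.49 ± 0.16. The replication helicase genes Mcm2, Mcm3, Mcm4 and Mcm5 were higher by 0.96, 0.64, 0.73 and 0.73. The call of Mcm3 was lost in 5 of 32 repeats, among them those without the plates of day 5 (0.54, edgeR adjusted p = 0.0775) or day 8 (0.44, edgeR adjusted p = 0.129). The calls of Mcm4 and Mcm5 were each lost in 1 repeat (adjusted p = 0.196 and 0.0742, by edgeR or DESeq2). The rule partly fixes the mitosis genes here, since all Lgr5-negative wells include wells with Mki67 or Top2a and members do not; the 4 mitosis genes tested were all lower in members, with Cdk1, the mitotic kinase, at -1.39, and Ube2c, an enzyme of mitotic exit, at -1.08. Areg, an EGF receptor ligand, was lower (log2 difference -1.44), as were Hnf4g, an enterocyte transcription factor (-0.96), and Itln1, an intelectin of Paneth and goblet cells (-1.59).

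The next comparison was with Lgr5-high dividing wells, which meet the same Lgr5 threshold. Where a call was made, stem cell genes in members lay within 0.5 of those wells on the log2 scale. The large differences were in cell cycle genes, which the rule partly set. Of 3647 genes tested, 256 were higher in members (7.02%) and 334 lower (9.16%), or 16.2% in all, and the median log2 difference over all genes was 0.02. Olfm4 had 2909, 8921 and 14636 CPM in members, against 3499, 8771 and 11034 CPM in dividing wells (log2 difference 0.06 ± 0.05, edgeR adjusted p = 0.455). Tnfrsf19 differed by 0.18 ± 0.13, Smoc2 by 0.05 ± 0.06 and Axin2 by 0.09 ± 0.09, and none was called. Of 16 stem cell genes tested, 4 were higher in members and 2 lower, with changes under 0.5 on the log2 scale.

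The stem cell genes that differed did so by small amounts. Slc12a2 had 4533, 5558 and 6103 CPM in members, against 4422, 4790 and 5368 CPM in dividing wells, and was higher on 15 of 16 plates by 0.19 ± 0.04 (SE, log2; edgeR adjusted p = 0.00011). Rgmb was higher by 0.22, Cdk6 by 0.33 and Prom1 by 0.34; the call of Prom1 was lost without day 6 replicate 3 (adjusted p = 0.0796) and without day 8 replicate 1 (adjusted p = 0.0854). Ascl2 had 20.3, 106 and 198 CPM in members, against 69.9, 145 and 243 CPM in dividing wells, and was lower on 13 of 16 plates (log2 difference -0.41 ± 0.14, edgeR adjusted p = 0.0262). That call was lost without any 1 of 6 plates, namely day 4 replicate 2 (adjusted p = 0.0709), day 5 replicates 1 (0.0514) and 3 (0.0835), day 6 replicate 1 (0.0532), day 8 replicate 2 (0.0679) and day 9 replicate 3 (0.0799). Cdca7 was lower (log2 difference -0.28), a call lost without day 9 replicate 3 (adjusted p = 0.0655).

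Of 13 Wnt genes tested, 4 were higher in members and none lower: Sox9 by 0.22, Myc by 0.28, Tcf7l2 by 0.29 and Lgr4, the close relative of Lgr5, by 0.30. Sox9 had 773, 1052 and 1304 CPM in members, against 704, 887 and 1016 CPM in dividing wells, and was higher on 13 of 16 plates. Without the filter on low counts, where the median over all genes was -0.09, none of the 4 was called (edgeR adjusted p = 0.0941 to 0.250). None of the 6 reserve stem cell genes tested was called, nor any of 6 M cell, 6 NF-kappaB, 4 enterocyte and 3 Notch genes. The median of the Wnt list was 0.22, against 0.02 over all genes.

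All 18 mitosis genes tested were lower in members, with a median log2 difference of -3.10, a difference that the choice of wells without Mki67 and Top2a partly fixes. Ube2c differed by -2.69, Cdk1 by -2.55, Aurkb, a kinase of the chromosomal passenger complex, by -3.36, and Ccnb1, the mitotic cyclin, by -3.26. The largest falls named by the rule were Hist1h2ap, a replication-dependent histone gene with near-identical copies, at -5.42, Tpx2, a spindle factor, at -4.10, and Cenpf, a kinetochore protein, at -4.00. Of 14 DNA replication genes, 12 were lower, with a median of -0.71. Pcna had 299, 549 and 928 CPM in members, against 517, 1038 and 1424 CPM in dividing wells (log2 difference -0.82 ± 0.06, edgeR adjusted p = 1.99e-21), and Mcm6 differed by -0.46. Rrm2, a subunit of ribonucleotide reductase, differed by -2.23. Replication genes in members therefore lay between the dividing and the Lgr5-negative non-dividing wells: summed over the list, the median plate had 2023 CPM in members, 3811 CPM in Lgr5-high dividing wells and 926 CPM in Lgr5-negative non-dividing wells.

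The CDK inhibitor genes Cdkn1a and Cdkn1b did not pass the test against dividing wells. Cdkn1a had 12.3, 66.7 and 214 CPM in members, against 38.9, 76.8 and 141 CPM in dividing wells, with a log2 difference of 0.06 ± 0.16 (edgeR adjusted p = 0.847), higher on 8 of 16 plates. Cdkn1b differed by -0.11 (edgeR adjusted p = 0.573). Ccnd2, a D-type cyclin of early G1, had 288, 538 and 1053 CPM in members, against 193, 394 and 771 CPM, and was higher on 16 of 16 plates (0.56 ± 0.07, edgeR adjusted p = 1.04e-10). Btg1, an antiproliferative gene, was higher by 0.36, and Rbl1, the pocket protein p107 that rises with S phase, was lower (log2 difference -1.37).

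Among called genes averaging at least 5 on the log2 CPM scale, Tff3, Rnase4 and Fcgbp rose most over dividing wells. Tff3 had 0, 271 and 1735 CPM in members, against 43.4, 206 and 520 CPM in Lgr5-high dividing wells, and was higher on 11 of 16 plates (log2 difference 1.34 ± 0.16, edgeR adjusted p = 5.33e-12). Fcgbp was higher by 1.22, Agr2 by 0.47 (edgeR adjusted p = 0.0102) and Mmp7 by 0.88. Over all wells, Lgr5-low and Lgr5-negative non-dividing wells had more Tff3 (918 and 947 CPM) than members (550 CPM). The same held for Fcgbp, with 308 and 382 CPM against 126 CPM. These genes were concentrated in few wells: the 10 members with the most Tff3 held 52.2% of its 956 UMIs, and the 10 with the most Fcgbp 63.0% of its UMIs. DESeq2 did not call Tff3 (log2 difference 1.05, adjusted p = 0.0735) or Fcgbp (0.92, adjusted p = 0.249). With wells of 5 or more goblet and Paneth list UMIs left out of both classes, an alternative added after seeing the data, Mmp7 differed by 0.17 (edgeR adjusted p = 0.556) and Agr2 by 0.27 (edgeR adjusted p = 0.346), and 449 genes were called.

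Rnase4, a secreted ribonuclease, was spread more widely. It had 89.4, 245 and 565 CPM in members, against 56.4, 85.1 and 136 CPM in Lgr5-high dividing wells, and was higher on 15 of 16 plates (log2 difference 1.23 ± 0.13, edgeR adjusted p = 1.04e-13). It was counted in 41.5% of members, 32.2% of dividing wells and 38.4% of Lgr5-negative non-dividing wells, and after thinning to 3000 UMIs in 33.1%, 20.5% and 27.01%. Over all wells, Rnase4 had 215 CPM in members, 201 CPM in Lgr5-low and 246 CPM in Lgr5-negative non-dividing wells. In the Lgr5-high, Lgr5-low and Lgr5-negative dividing wells it had 91.4, 109 and 148 CPM, so the level was not particular to members. Rnase1, of the same enzyme family, was higher by 0.93 ± 0.13, and Ndrg1, a gene induced by hypoxia and differentiation, by 0.87 ± 0.14. Vldlr, a lipoprotein receptor, was higher on 16 of 16 plates by 0.86 ± 0.15, and the chromatin gene Phf21a and the stress regulator Crebrf by 0.81 and 0.80. Neat1, the nuclear long noncoding RNA of paraspeckles, had 349, 589 and 1294 CPM in members, against 241, 360 and 618 CPM, higher on 16 of 16 plates (0.68 ± 0.07, edgeR adjusted p = 3.69e-14).

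**Figure D4:**
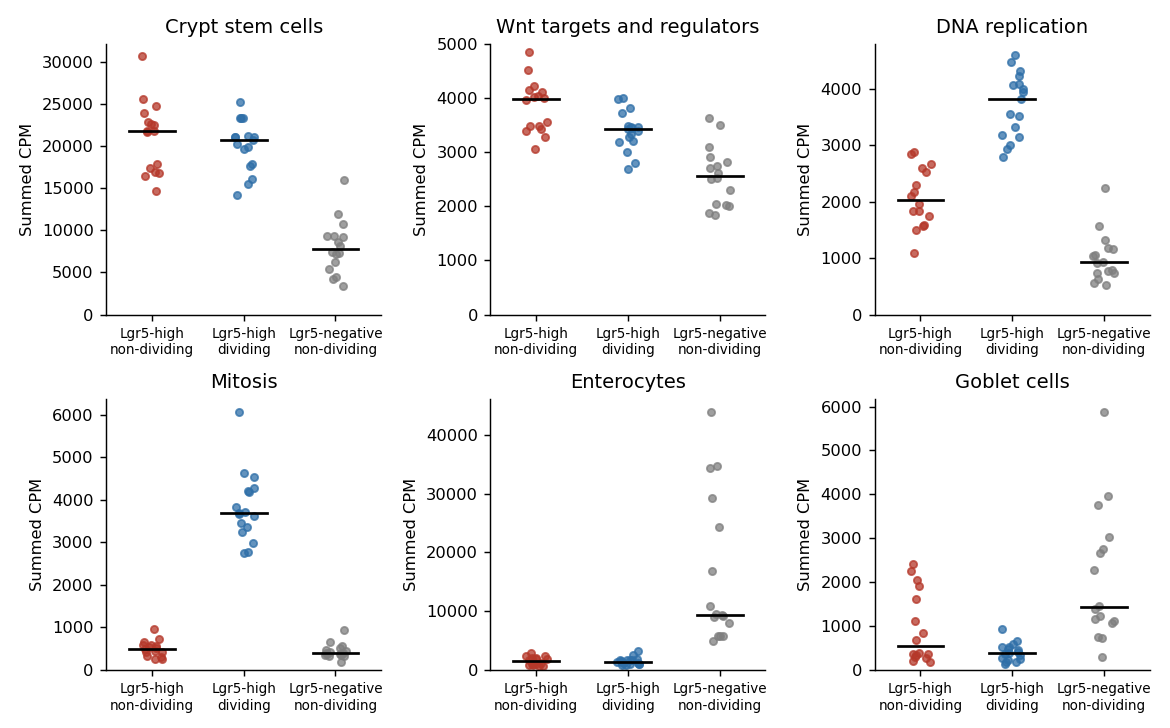
Summed CPM of 6 gene lists in each plate for Lgr5-high non-dividing, Lgr5-high dividing and Lgr5-negative non-dividing wells (linear axes from 0, bars are medians). The stem cell sums of the first 2 classes share a range, with medians of 21812 and 20748 CPM, the mitosis sum separates the dividing wells, and the enterocyte sum separates the wells without Lgr5.

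For the enterocyte, goblet, Paneth and M cell lists, the median plate sum of members lay above that of Lgr5-high dividing wells. It lay below that of Lgr5-negative non-dividing wells for the same lists, while the plate ranges of the goblet, Paneth and M cell lists overlapped. The enterocyte list summed to 563 to 2875 CPM a plate with a median of 1472, against 764 to 3263 CPM with a median of 1273 in Lgr5-high dividing wells and 4859 to 43886 CPM with a median of 9345 in Lgr5-negative non-dividing wells. The goblet list summed to 185 to 2407 CPM (median 535), against 133 to 926 (378) and 294 to 5881 (1429). The Paneth list summed to 91.5 to 3331 CPM (median 306), against 140 to 710 (240) and 42.5 to 2140 (682). For M cells the sums were 578 to 1570 CPM (910), 599 to 1402 (824) and 812 to 4234 (1272). The top plate of members exceeded every plate of dividing wells for the goblet and Paneth lists, and the Mmp7 and Agr2 values without wells rich in these lists are given above.

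Defining secretory transcripts were confined to few members. Muc2, the main goblet mucin, had 31 UMIs in 14 of 441 wells, 87.1% of them in 10 wells, and Lyz1, a Paneth lysozyme with a near-identical copy, had 115 UMIs in 22 wells, 57 of them in a single well. After thinning, 41 of 335 members (12.2%) had 3 or more goblet list UMIs, against 7.31% of Lgr5-high dividing and 27.5% of Lgr5-negative non-dividing wells, and 35 (10.4%) had 3 or more Paneth list UMIs, against 7.41% and 12.3%. Over all members, the enteroendocrine list had 8 UMIs (4.60 CPM, 5 of 9 genes at 0), the tuft cell list 43 (24.7 CPM), the immune list 11 (6.33 CPM, 4 of 6 genes at 0) and the stromal list 5 (2.88 CPM, 5 of 7 genes at 0). No member had over 3 times the median UMIs of its plate.

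Within members, few genes changed over days 4 to 9. Of 4390 genes tested for a change per day over 16 plates, 20 rose (0.456%) and 16 fell (0.364%), or 0.820% in all. Of 16 stem cell genes, 1 fell, Clca3b by 0.15 a day (adjusted p = 0.0437 in edgeR, lost without any 1 of 10 plates, adjusted p up to 0.188), and none rose. None of 13 Wnt, 14 replication, 12 G1, 5 mitosis and 12 transcription factor genes was called. Smoc2 changed by -0.03 per day, Tnfrsf19 by -0.04, Ascl2 by -0.02, Axin2 by 0.02, Onecut2 by -0.02 and Tnfrsf11a by -0.13 (edgeR adjusted p = 0.486), on the log2 scale.

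Of 7 M cell genes tested, Ccl20 and Ccl9 fell with the days and none rose, and of 7 genes of the RANK and NF-kappaB response, Tnfaip3 fell and none rose. Ccl20 had 102 CPM on the single plate of day 4, then on average 241 ± 57.0, 250 ± 104, 58.1 ± 27.4, 37.5 ± 22.7 and 55.5 ± 17.9 CPM on days 5 to 9 (SD, n = 3 plates a day). It fell by 0.58 ± 0.10 a day (SE, log2; edgeR adjusted p = 0.000899), with the plates of days 5 and 6, from 130 to 312 CPM, above those of days 7 to 9, from 14.3 to 89.4 CPM. Tnfaip3, the NF-kappaB feedback inhibitor A20, had 183 CPM on day 4 and averaged 195, 163, 50.8, 48.0 and 66.4 CPM on days 5 to 9, a fall of 0.46 ± 0.10 a day (edgeR adjusted p = 0.00838). Tnfaip3 was thus high on days 4 to 6 and low from day 7, and Ccl20 was high on days 5 and 6. The call of Ccl20 was lost with members of 5 or more Lgr5 UMIs (edgeR adjusted p = 0.308), and that of Tnfaip3 with wells thinned to 1000 UMIs (edgeR adjusted p = 0.245). Ccl9, another chemokine of follicle epithelium, fell by 1.05 ± 0.24 a day (edgeR adjusted p = 0.0242), a call lost without day 5 replicate 3 (adjusted p = 0.0883) and without day 9 replicate 2 (adjusted p = 0.0731). Its level was 122 CPM on the plate of day 4 and averaged 45.1, 24.1, 7.73, 0 and 5.41 CPM on days 5 to 9. The day 4 plate may have let Ccl9 past the filter, which would partly fix the fall.

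Reg3b, an antimicrobial lectin, fell by 1.05 ± 0.19 a day (SE, log2; edgeR adjusted p = 0.00102), with means of 147, 368, 22.4, 1.84 and 5.46 CPM on days 5 to 9, and its call was lost with thinned wells (edgeR adjusted p = 0.213). Mreg, a melanosome transport gene, had 203 CPM on day 4 and averaged 179, 82.8, 102, 55.2 and 26.1 CPM on days 5 to 9 (-0.57 ± 0.09 a day, edgeR adjusted p = 0.000216). Sox4, a transcription factor of progenitors, had 1463 CPM on day 4 and averaged 2203 ± 98.7 CPM on day 5 and 1058 ± 131 CPM on day 9 (-0.22 ± 0.04 a day, edgeR adjusted p = 0.00348). Lyz1 was also called as falling (-0.96 ± 0.25 a day, edgeR adjusted p = 0.0432), but day 5 replicate 3 had 1271 CPM, while no other plate exceeded 51.2 CPM. That call was lost without day 8 replicate 1 (adjusted p = 0.0506), day 8 replicate 2 (0.0559) or day 9 replicate 1 (0.0905). Day 5 replicate 3 let Lyz1 past the filter, which partly fixes the direction.

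Among the genes that rose, Slc4a4, the sodium-bicarbonate cotransporter, had 81.3 CPM on day 4 and averaged 60.0 ± 39.5, 117 ± 55.0, 113 ± 38.6, 224 ± 91.5 and 307 ± 73.5 CPM on days 5 to 9 (SD, n = 3 plates a day). It rose by 0.54 ± 0.08 a day (SE, log2; edgeR adjusted p = 0.000195). Car9, the hypoxia-induced carbonic anhydrase, had 264 CPM on day 4 and averaged 179, 135, 294, 348 and 401 CPM on days 5 to 9 (0.29 ± 0.07 a day, edgeR adjusted p = 0.0250). Egln3, a prolyl hydroxylase, and Bhlhe40, a transcription factor, both of which hypoxia is known to induce, rose by 0.31 (edgeR adjusted p = 0.0295) and 0.30 a day (edgeR adjusted p = 0.0416). Kctd14 rose by 0.39 a day (edgeR adjusted p = 0.00684), a call lost with members of 5 or more Lgr5 UMIs (edgeR adjusted p = 0.198). Slc4a4 and Car9 had their highest means on day 9.

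Hbegf, an EGF receptor ligand, was at 0 on day 4 and averaged 24.2, 73.7, 35.5, 80.4 and 116 CPM on days 5 to 9, a rise of 0.48 ± 0.12 a day (SE, log2; edgeR adjusted p = 0.0416). The call of Hbegf was lost without any 1 of 8 plates (adjusted p = 0.0555 to 0.207), on days 4, 5, 8 and 9. Muc2 rose by 1.35 ± 0.31 a day (edgeR adjusted p = 0.0227), with 0 on day 4 and 47.4 ± 44.4 CPM on day 9, a call that rests on its 31 UMIs. It was lost in 2 of the 18 repeats that tested it, 1 of them without day 9 replicate 2 (adjusted p = 0.0539). Over the repeats, by edgeR or DESeq2, the smallest rise was 0.48 a day and the highest adjusted p was 0.420. The highest plate of Muc2, at 96.8 CPM on day 9, may have let it past the filter, which would partly fix the rise. Cdkn1a averaged 64.0 CPM on day 5 and 176 ± 32.0 CPM on day 9, and its change of 0.40 ± 0.11 a day was not called (edgeR adjusted p = 0.0539). It was called in 6 of 24 repeats and not in the other 18. The 6 included those without day 5 replicate 3 (adjusted p = 0.0116), day 6 replicate 2 (0.0278), day 8 replicate 2 (0.0303) or day 8 replicate 3 (0.0443). The fit without the filter on low counts also called it (0.42, edgeR adjusted p = 0.00383).

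Leaving out single plates moved the number of genes called from 36 to between 13 and 63: it was 13 without day 9 replicate 2, 19 without day 5 replicate 3, 21 without day 9 replicate 1 and 63 without day 6 replicate 2. Median well depth moved with the day. Over all kept wells, plate medians ran from 5630 to 6960 UMIs on day 4 and from 2968 to 4213.5 UMIs on day 9. In the members that entered the slopes, the median was 5028 UMIs on the plate of day 4, and 2814, 3446 and 4313 UMIs on those of day 9. The part of depth in these slopes was not tested.

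**Figure D5:**
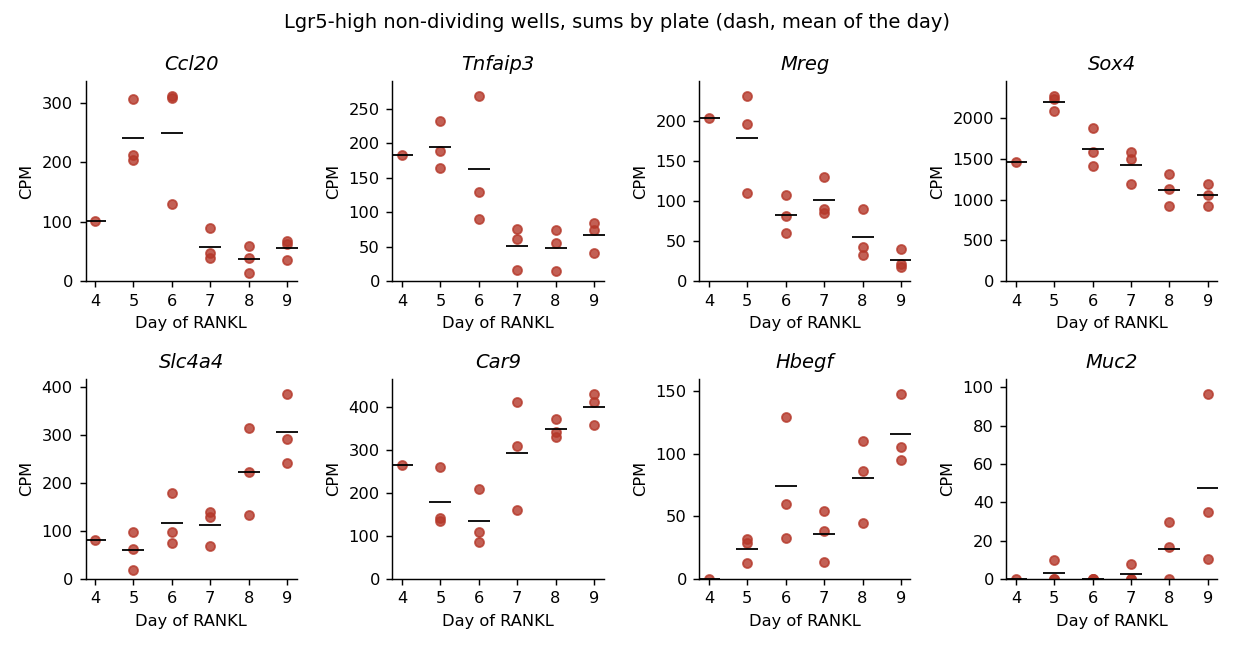
CPM of 8 genes by day in the Lgr5-high non-dividing wells, 1 point per plate (1 plate on day 4, 3 on the other days), with a dash at the mean of a day. Ccl20, Tnfaip3, Mreg and Sox4 are lower late, Slc4a4, Car9 and Hbegf are higher late, and Muc2 rests on few UMIs.

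Olfm4 followed no steady course in members. It had 7824 CPM on the plate of day 4 and then averaged 10718 ± 2072, 4895 ± 1917, 11884 ± 2520, 9633 ± 758 and 3818 ± 871 CPM on days 5 to 9 (SD, n = 3 plates a day). All plates of days 6 and 9, at 2867 to 7096 CPM, lay below all plates of days 5, 7 and 8, at 8850 to 14703 CPM. The change per day was not called (-0.14 ± 0.07, edgeR adjusted p = 0.468). The Lgr5-high dividing wells had low values on the same days, with 5093 CPM on day 6 and 3649 CPM on day 9, against 10099, 10614 and 8549 CPM on days 5, 7 and 8. The pattern was noticed after the values were seen and was not tested.

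The change per day of members was set against that of Lgr5-negative non-dividing wells of the same plates. It differed for 74 of 2116 genes: 54 had a more positive slope in members (2.55%) and 20 a more negative one (0.945%), or 3.50% in all. The count was 42 without day 5 replicate 3 and 46 without day 5 replicate 1. The genes with a more positive slope described next had their highest levels on days 4 to 5 in the wells without Lgr5. Apob, the apolipoprotein of chylomicrons, averaged 235, 181 and 185 CPM in members over days 4 to 5, 6 to 7 and 8 to 9 (n = 4, 6 and 6 plates), against 2617, 568 and 367 CPM in Lgr5-negative non-dividing wells (difference of slopes 0.58 ± 0.10 on the log2 scale per day, edgeR adjusted p = 0.000561). Ccl20 averaged 194, 146 and 43.7 CPM in members, against 1975, 380 and 127 CPM (0.52 ± 0.12, edgeR adjusted p = 0.00682). The chemokine was thus lowest on days 8 to 9 in both classes, with the wider range in the wells without Lgr5; the difference was not called with a minimum of 3000 UMIs (edgeR adjusted p = 0.285).

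Among the genes that passed the filter and were called, the most positive difference was that of Selenop, which averaged 11.7, 22.2 and 59.5 CPM in members, against 823, 216 and 215 CPM in Lgr5-negative non-dividing wells (difference of slopes 0.93 ± 0.15, edgeR adjusted p = 0.000548). The levels in members rest on 4, 14 and 53 UMIs, against 350, 133 and 95 UMIs in the wells without Lgr5. Selenop may have passed the filter through the wells without Lgr5. Scaled within members alone, it averaged 16.6, 36.6, 10.3, 16.9 and 110 CPM on days 5 to 9, so its high level there was that of day 9. Mt2, a metallothionein, averaged 372, 298 and 198 CPM in members, against 1641, 582 and 87.9 CPM (0.70 ± 0.13, edgeR adjusted p = 0.000686). Phip, a chromatin reader, had the more negative slope in members: it averaged 268, 248 and 222 CPM there, against 186, 311 and 631 CPM (-0.50 ± 0.09, edgeR adjusted p = 0.000668). Jun, an immediate early gene, averaged 248, 249 and 233 CPM in members, against 141, 277 and 362 CPM (-0.39 ± 0.09, edgeR adjusted p = 0.00966). In these 2 genes the levels varied little between periods in members and were highest on days 8 to 9 in the wells without Lgr5. With members of 5 or more Lgr5 UMIs the calls of Apob (edgeR adjusted p = 0.152) and Mt2 (edgeR adjusted p = 0.101) were lost, and with a minimum of 3000 UMIs that of Jun (edgeR adjusted p = 0.248). None of 11 stem cell genes tested differed in slope; Olfm4 had a difference of -0.08 (edgeR adjusted p = 0.706) and Axin2 of -0.33 (edgeR adjusted p = 0.158).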

How the data were processed

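RNA was counted in single organoid cells from 44 plates. The deposited tables hold whole-number UMI counts per gene and well, which the authors had not normalized; per the submitters' processing notes they were made with kallisto, bustools and Seurat 3.1.5 on GRCm38, and for kallisto and bustools a version is not given in the sources used here. In the RANKL and RANKL+CSRM617 tables the poorest deposited wells had 657 and 344 UMIs. Gene coordinates come from GENCODE M21.

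Wells under 1000 UMIs were left out. No doublet caller was run, because cells were sorted singly. Counts were summed per plate and class (10 or more wells) and tested with edgeR 4.0.16 (TMM, filterByExpr, quasi-likelihood test, Benjamini-Hochberg adjustment, R 4.3.3), with plate as a term for classes and day as a number for slopes; Lgr5, Mki67 and Top2a stayed in library sizes and out of the tests. An SE was taken as the log2 difference divided by the root of its F statistic. The steps were tested on simulated data. A comparison with day 0 was not fitted, since only 10 wells passed there. Alternatives used DESeq2 1.42.0, other size factors, filters, thresholds, thinned or depth-matched wells, and left out plates or days; thinning and exact binomial intervals used Python 3.11.15 and scipy 1.17.1.

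Nothing in the labels says whether each plate was a culture of its own, so p-values measure only how far plates vary, which may be technical. Intervals and limits at 0 (3 counts) cover counting error only. The wells and gene lists were chosen with earlier results of these data known. Genes were named by a rule, namely the 10 largest rises and falls among called genes averaging at least 5 in log2 CPM (5 and 5 for slopes), up to 4 called members of each list and set markers, of which some are not reported here; Slc12a2, Prom1 against Lgr5-negative wells, Tcf7l2, Hopx, Neat1, Mreg, Sox4, Car9, Egln3, Bhlhe40 and other genes outside it were chosen after their values were seen and, where no repeat is given, were not repeated under alternatives.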

Additional observations from a re-analysis of the deposited data

Results flagged for a closer look

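The change per day over days 4 to 9 differed between Lgr5-high non-dividing and Lgr5-negative non-dividing wells for 74 genes, tested as the difference of the 2 slopes in a single fit over 16 plates (edgeR quasi-likelihood test). Differences are on the log2 scale per day, and positive values mean a more positive slope in the Lgr5-high wells. Of the genes named by the rule, the slope was more positive for Selenop (0.93), Mt2 (0.70), Cat, the peroxisomal catalase (0.67), Apob (0.58), Slc5a1 (0.58), Ccl20 (0.52), Cdkn1a (0.47) and Reg3g (0.37). It was more negative for Maged1 (-0.53), Phip (-0.50), Ythdc1 (-0.45), Wsb1 (-0.44), Jun (-0.39), Egr1 (-0.37) and Hopx (-0.32).

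Cdkn1a averaged 60.2, 60.9 and 127 CPM over days 4 to 5, 6 to 7 and 8 to 9 in Lgr5-high non-dividing wells, against 730, 320 and 407 CPM in Lgr5-negative non-dividing wells, and its call was lost without any 1 of 5 plates (edgeR adjusted p = 0.0588 to 0.0933), with a minimum of 3000 UMIs (edgeR adjusted p = 0.190) and with members of 5 or more Lgr5 UMIs (edgeR adjusted p = 0.624). Hopx averaged 354, 349 and 312 CPM, against 172, 292 and 446 CPM, and its call was lost without any 1 of 8 plates (edgeR adjusted p = 0.0519 to 0.219). It was also lost without the filter on low counts (-0.28, edgeR adjusted p = 0.164), with members of 5 or more Lgr5 UMIs (-0.36, edgeR adjusted p = 0.360), with a minimum of 3000 UMIs (-0.24, edgeR adjusted p = 0.407) and with wells thinned to 1000 UMIs (-0.08, edgeR adjusted p = 0.855). Cat averaged 65.1, 84.0 and 82.6 CPM, against 378, 207 and 86.1 CPM, and kept its call in every repeat that tested it. The calls of Maged1, Egr1, Slc5a1, Ythdc1, Reg3g and Wsb1 were each lost without at least 2 single plates, with the highest edgeR adjusted p at 0.189 (Maged1, without day 5 replicate 3), 0.142 (Egr1, without day 5 replicate 3), 0.0907 (Slc5a1, without day 9 replicate 3), 0.126 (Ythdc1, without day 5 replicate 3), 0.0713 (Reg3g, without day 5 replicate 3) and 0.111 (Wsb1, without day 5 replicate 2). Under the other settings that ended a call, the highest edgeR adjusted p was 0.836 for Ythdc1 (-0.23, with members of 5 or more Lgr5 UMIs), 0.594 for Egr1 (-0.18, with a minimum of 3000 UMIs), 0.153 for Wsb1 (-0.44, with the same minimum), 0.0731 for Maged1 (-0.48, without the filter) and 0.0880 for Reg3g (0.27, with members of 2 or more Lgr5 UMIs), and DESeq2 gave 0.185 for Slc5a1 (0.57).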

How the results depend on the processing

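No called gene named by the rule changed sign in any repeat. Against Lgr5-negative non-dividing wells, 709 genes were called; the count was 1178 with no filter on low counts, 113 with wells thinned to 1000 UMIs (337 genes tested), 233 with members of 5 or more Lgr5 UMIs, 437 with a minimum of 3000 UMIs, 342 with wells of 3 or more mitosis UMIs left out, 630 by DESeq2 and 452 to 722 when a plate or a day was left out, with 452 without day 5. With wells matched on total UMIs, 479 were called, and 517 of 517 main calls that could be tested kept their direction. Against all Lgr5-negative wells, 728 genes were called, and under the same settings 1146, 157, 267, 631, 459, 554 and 514 to 742, and 395 with wells matched on total UMIs. Without the filter the split was 443 higher and 735 lower in the first comparison, 205 higher and 941 lower in the second, where the median over all genes was -0.19, and 117 higher and 622 lower against Lgr5-high dividing wells; it was 74 and 30 for the change per day and 95 and 4 for the difference of slopes. Against Lgr5-high dividing wells, 590 genes were called, and 60 with thinned wells, 393 with no replicate block (the plate not a term), 409 by DESeq2 and 534 to 622 without a plate. For the change per day, 36 genes became 104 with no filter, 7 with thinned wells, 18 with a minimum of 3000 UMIs, 28 by DESeq2 and 13 to 63 without a plate. For the difference of slopes, 74 became 49 by DESeq2, 11 with thinned wells, 9 with members of 5 or more Lgr5 UMIs, 41 with a minimum of 3000 UMIs and 42 to 98 without a plate. The fall in counts under thinning, higher thresholds and fewer plates comes with fewer UMIs or sums. The replicate numbers did not pair plates of different days: deviations of same-numbered plates correlated at -0.041 to 0.054 over 30 pairs, and 5 of 15 plates correlated best with their own number. With the replicate number as a block, 28 genes changed per day. With no replicate block for the plate, 654 and 567 genes were called against Lgr5-negative non-dividing and all Lgr5-negative wells. Day 4 rests on 1 plate, low genes such as Tnfrsf19 on few UMIs, and absence of 1 UMI does not show that a gene is off.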
